A study of Mus musculus with 20 samples.

Results

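The 52 genes described here encode the machinery that brings newly made proteins into the endoplasmic reticulum (ER) and carries them between the ER and the Golgi. They were chosen by name for this role, with earlier results of these data known. They cover the signal recognition particle (SRP) and its receptor, the translocon, signal peptidase, the COPII and COPI coats, and cargo receptors. Of these, 51 were measured among 22180 genes, each from probesets annotated to that symbol alone. Srp54a, the GTPase subunit of SRP, is read only by probesets shared with its copies and was left out of the comparisons. Liver RNA came from 20 adult male C57Bl6 mice (C57BL/6J in the study's methods), with 1 mouse per array of the MoGene-2_0-st type. NFIL3 KO mice (Nfil3-/-) lack the gene of a bZIP transcriptional repressor, and WT animals were their littermates. Each genotype was injected with tunicamycin at 1 µg/g or with vehicle (150 mM dextrose), and the liver was collected after 8 h. The 4 groups, which are tunicamycin-treated NFIL3 KO, vehicle-treated NFIL3 KO, tunicamycin-treated WT and vehicle-treated WT, held 5 separate mice each.

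As background, tunicamycin blocks N-linked glycosylation, so that glycoproteins misfold in the ER and the unfolded protein response (UPR) is switched on. The UPR transcription factors ATF6 and XBP1 are known to raise genes that serve protein entry, folding and export. SRP delivers ribosomes to the SEC61 channel, signal peptidase removes the signal peptide, COPII coats build vesicles that leave the ER, and COPI coats return escaped ER proteins from the Golgi. In hepatocytes this route carries the plasma proteins and the lipoproteins that the liver secretes.

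Promoter sequence was examined for sites that the UPR factors are known to bind, since most members moved together. RefSeq promoters (GRCm38.p6, from 250 bases before to 50 after each start site, 300 bases) were matched by symbol for 40 of the 51 members, and both strands were searched. The ER stress element ERSE (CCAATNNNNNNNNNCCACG) and ERSE-II (ATTGGNCCACG) matched none of the 40, against 0.137% and 0.0444% of 27025 genes. At shares this low, a search of 40 genes would most likely find no match, so nothing is read from their absence. The UPR element TGACGTGG was found for 5 of the 40 members (12.5%), against 0.714% of all genes with a promoter. These 5 were Copb1, Copb2, Kdelr3, Sec23a and Sec24d. The core TGACGTG, which lies inside the UPR element and was added after the 8-letter result was seen, also matched Srpr and made 15% of members against 2.22% of genes. The 3 windows below hold a UPR element upstream of the start site in genes described further on, with the element in capitals. They run 5′ to 3′ on the strand of the gene, begin 30 bases before the element and end at the base before the start site.
Kdelr3, chr15:79516348-79516407, plus strand: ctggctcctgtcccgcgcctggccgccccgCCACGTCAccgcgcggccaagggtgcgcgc
Sec24d, chr3:123267440-123267495, plus strand: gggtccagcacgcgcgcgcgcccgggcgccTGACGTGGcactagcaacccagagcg
Copb1, chr7:114254681-114254738, minus strand: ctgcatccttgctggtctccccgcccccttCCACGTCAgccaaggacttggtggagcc
In Kdelr3 and Copb1 the element reads on the opposite strand and so appears as its reverse complement. It lay from -30 to -23 in Kdelr3, from -26 to -19 in Sec24d and from -28 to -21 in Copb1, counted from the start site. In Copb2 it ran from -7 to 1 and in Sec23a from 7 to 14, so no upstream window is printed for them. Srprb and Mcfd2, which responded more than Sec24d, were not among the matches. Whether the element goes with the size of the response was not tested. A match is a run of letters and not a measured binding site.

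Values are log2 signals normalised together over the 20 arrays, so a level can be set against the same gene in other arrays but not against another gene. Nfil3 itself averaged 5.25 ± 0.46 after tunicamycin and 5.41 ± 0.20 with vehicle in NFIL3 KO livers (log2 signal, SD, n = 5), against 7.99 ± 0.47 and 6.44 ± 0.45 in WT livers, and each NFIL3 KO array lay below all WT arrays of the same treatment. Within groups, arrays correlated at 0.984 to 0.990 over all genes, and the least similar was tunicamycin-treated NFIL3 KO replicate 3, which was the lowest of its group for 32 of the 51 members. Tunicamycin-treated WT replicates 1 and 2, which stood apart in earlier work on these data, were kept, and results that rest on them are also given without them. Group means of 8 hepatocyte markers were 8.39 to 13.55 on the log2 scale, and after tunicamycin 1 was called higher (Tat) and 4 lower (Apoa1, Ttr, Apob and Serpina1a) in both genotypes. Of 6 Kupffer cell markers, Adgre1 (0.62) and Marco (1.59) were called higher in WT livers and none in NFIL3 KO livers. Log2 differences of the 6 ran from -0.21 to 1.59 in WT and from -0.33 to 0.71 in NFIL3 KO livers. Of 5 sinusoidal endothelium markers, Stab2, Clec4g and Kdr were called lower in WT livers, where the 5 ran from -0.47 to 0.57. Sox9, 1 of 4 cholangiocyte markers, was also called lower in WT livers. In NFIL3 KO livers only Stab2 and Kdr were called among the markers of cell types other than hepatocytes. No marker of T cells, B cells, plasma cells, neutrophils, stellate cells or pancreatic acinar cells was called, and group means of the 4 T cell markers (3.72 to 4.77) did not exceed the highest array median. The part of these shifts in the results was not tested, and in whole-liver RNA fewer cells of a type and less RNA per cell cannot be told apart.

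Tunicamycin raised most of the machinery in both genotypes. In NFIL3 KO livers 44 of the 51 members were called higher and 1 lower, where 13.5% of all genes tested were called higher and 13.7% lower (limma, Benjamini-Hochberg adjusted p under 0.05). In a separate fit that tested only the 11090 genes above the median level, which include 50 of the 51 members, 27.3% were called higher in NFIL3 KO livers and 27.5% in WT livers. In WT livers 46 were called higher and 1 lower, where 13.7% of all genes were called higher and 13.7% lower. The median log2 difference of the members was 0.65 in NFIL3 KO livers and 0.71 in WT livers, against -0.03 over all genes in each genotype. A call with more than a doubling was found for 11 members in NFIL3 KO livers and 17 in WT livers. Of all 22180 genes, 681 and 707 met the same limits. The 5 tunicamycin arrays lay wholly above the 5 vehicle arrays for 45 members in NFIL3 KO livers and 44 in WT livers, against 10.3% and 11.7% of all genes. Sar1b was the 1 member called lower, in both genotypes. Since the members were chosen with earlier results of these data known, their counts are a description and not an independent test.

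**Figure D1:**
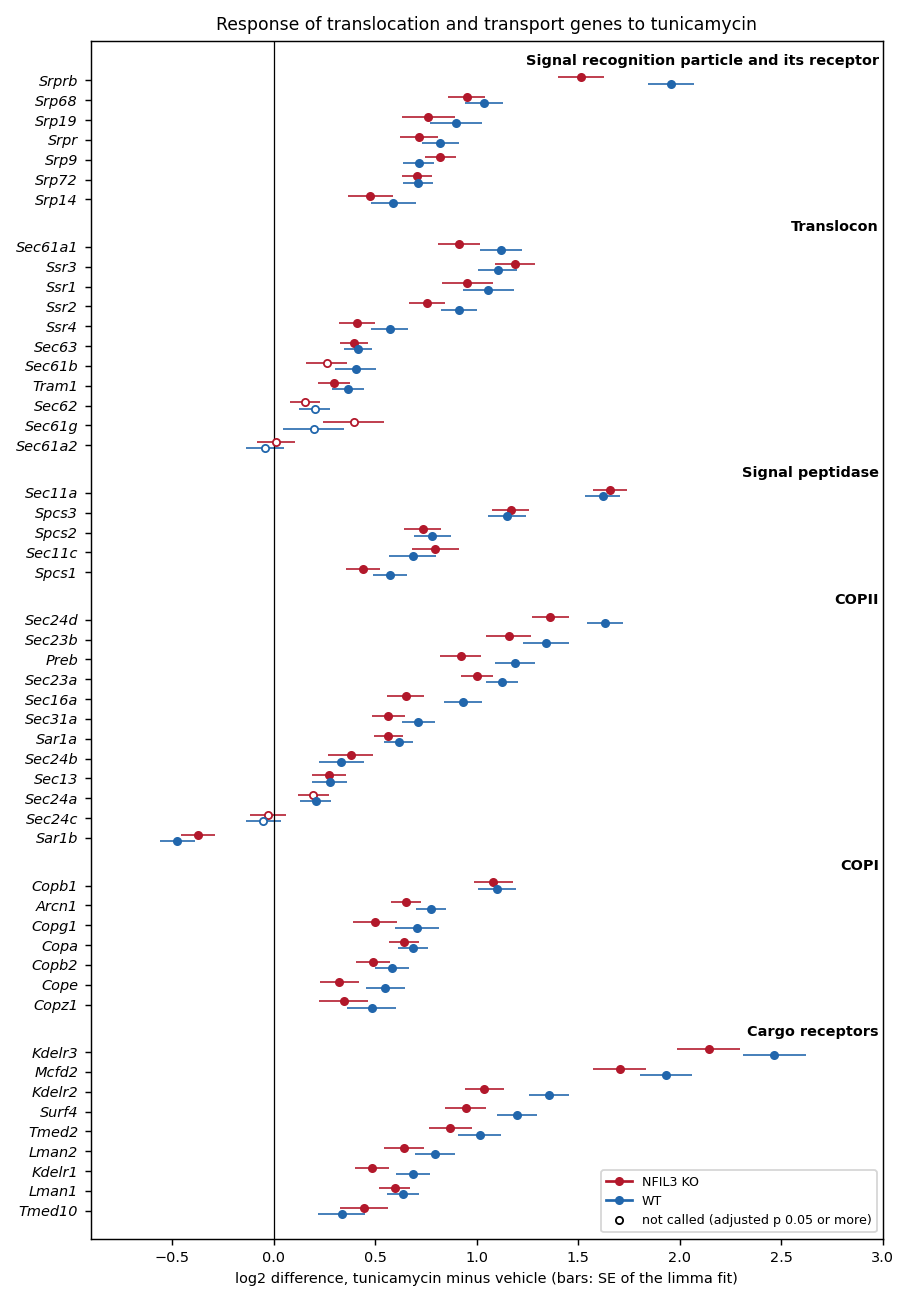
Log2 difference between tunicamycin and vehicle (horizontal axis) for the 51 measured members, grouped by role and ordered by the WT value, in NFIL3 KO (red) and WT (blue) livers. Points are differences of group means of 5 mice, bars are standard errors from limma, and open points were not called; Kdelr3 lies farthest right at 2.14 and 2.47, and Sar1b alone is called left of 0.

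All measured genes of 4 roles were called higher in both genotypes, namely SRP and its receptor (7 of 7), signal peptidase (5 of 5), COPI (7 of 7) and the cargo receptors (9 of 9). For the cargo receptor Tmed10, only the dimmest of its probesets was called alone in NFIL3 KO livers. Of the translocon genes, 7 of 11 were called higher in NFIL3 KO livers and 8 of 11 in WT livers. COPII had 9 of 12 called higher and 1 lower in NFIL3 KO livers, and 10 of 12 higher and 1 lower in WT livers. Members called in neither genotype were Sec61a2, Sec61g, Sec62 and Sec24c, while Sec61b and Sec24a were called in WT livers and missed the threshold in NFIL3 KO livers, where their log2 differences were 0.26 ± 0.10 and 0.20 ± 0.08 (SE, adjusted p = 0.0562 and 0.0627). The genotypes were not shown to differ for either gene, with log2 differences of responses of -0.14 ± 0.14 and -0.01 ± 0.11 (adjusted p = 0.9998 in each).

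SRP binds the signal sequence as it leaves the ribosome, and its receptor docks the complex on the ER membrane. Median log2 differences of this group were 0.76 in NFIL3 KO livers and 0.82 in WT livers. The largest response belonged to Srprb, the subunit that anchors the SRP receptor in the membrane. Srprb gave log2 signals of 8.87, 9.04, 8.69, 9.14 and 9.33 after tunicamycin and 7.48, 7.39, 7.48, 7.38 and 7.78 with vehicle in NFIL3 KO livers. In WT livers, Srprb gave 9.19, 9.26, 9.22, 9.20 and 9.21 after tunicamycin and 7.19, 6.99, 7.24, 7.47 and 7.39 with vehicle. Every tunicamycin array was above every vehicle array in each genotype, and the tunicamycin-treated WT arrays lay closer together than those of NFIL3 KO livers. The log2 difference was 1.51 ± 0.11 in NFIL3 KO livers, a 2.85-fold rise (adjusted p = 5.46e-10), and 1.96 ± 0.11 in WT livers, a 3.89-fold rise (adjusted p = 7.09e-12).

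Srp68, which with Srp72 forms a heterodimer on the SRP RNA, came next. Its log2 signals in NFIL3 KO livers were 8.99, 9.01, 8.69, 9.22 and 9.05 after tunicamycin and 7.95, 8.11, 8.10, 8.01 and 8.06 with vehicle. In WT livers, Srp68 had 9.18, 9.15, 8.97, 8.91 and 9.08 after tunicamycin and 8.09, 7.88, 7.99, 8.08 and 8.08 with vehicle. The groups did not overlap in either genotype, and the log2 differences were 0.95 ± 0.09 and 1.04 ± 0.09 (adjusted p = 2.36e-08 in NFIL3 KO and 5.72e-09 in WT livers). The remaining members rose by log2 differences of 0.48 to 0.82 in NFIL3 KO livers and 0.59 to 0.90 in WT livers. They were Srp9 and Srp14, which make up the domain that slows elongation, Srp19, which assists assembly of the particle, Srp72, and Srpr, the GTPase subunit of the receptor.

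The SEC61 channel is a complex of 1 alpha, 1 beta and 1 gamma subunit, to which the translocon-associated protein (TRAP) subunits Ssr1 to Ssr4, Tram1, Sec62 and Sec63 attach. Its genes responded unevenly, with log2 differences between 0.01 and 1.19 in NFIL3 KO livers and between -0.04 and 1.12 in WT livers. Sec61a1, the pore-forming alpha subunit, had log2 signals of 11.38, 11.35, 11.30, 11.55 and 11.56 after tunicamycin and 10.35, 10.59, 10.55, 10.50 and 10.59 with vehicle in NFIL3 KO livers. In WT livers, Sec61a1 had 11.53, 11.46, 11.59, 11.61 and 11.49 after tunicamycin and 10.25, 10.05, 10.59, 10.52 and 10.66 with vehicle. Every tunicamycin array stood above every vehicle array, with a log2 difference of 0.91 ± 0.10 in NFIL3 KO livers and 1.12 ± 0.10 in WT livers (adjusted p = 2.64e-07 and 1.16e-08).

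Its paralogue Sec61a2 showed no such separation. Sec61a2 read 6.11, 6.17, 5.99, 6.17 and 6.14 after tunicamycin and 6.001, 6.13, 5.99, 6.27 and 6.12 with vehicle in NFIL3 KO livers on the log2 scale. In WT livers, Sec61a2 read 6.31, 6.32, 6.22, 5.98 and 5.90 after tunicamycin and 6.02, 6.24, 6.23, 6.12 and 6.32 with vehicle. The groups overlapped, and the 95% confidence interval of the log2 difference ran from -0.18 to 0.21 in NFIL3 KO and from -0.24 to 0.15 in WT livers. Taken within each array, the response of Sec61a1 exceeded that of Sec61a2 by 0.90 ± 0.07 log2 units in NFIL3 KO and 1.16 ± 0.15 in WT livers (SE, exact two-sided permutation p = 0.00794, the smallest that 5 against 5 arrays can give, and 0.00983 after adjustment over 26 such tests).

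Ssr3, a subunit of the TRAP complex, also rose. In NFIL3 KO livers its log2 signals were 10.81, 10.86, 10.62, 10.85 and 11.23 after tunicamycin and 9.61, 9.76, 9.53, 9.71 and 9.80 with vehicle. In WT livers, Ssr3 gave 11.07, 10.88, 10.85, 10.96 and 10.98 after tunicamycin and 9.78, 9.96, 9.94, 9.83 and 9.72 with vehicle. Nothing overlapped, and the log2 differences were 1.19 ± 0.10 and 1.10 ± 0.10 (adjusted p = 2.3e-09 in NFIL3 KO and 6.53e-09 in WT livers). The other TRAP genes were all called, with log2 differences in NFIL3 KO and WT livers of 0.95 and 1.06 for Ssr1, 0.75 and 0.91 for Ssr2, and 0.41 and 0.57 for Ssr4. Sec63, which recruits the chaperone BiP to the channel, was called at 0.40 and 0.42, and Tram1, a membrane protein beside the channel, at 0.30 and 0.37.

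Sec62 and the small channel subunits had smaller differences, and some of their calls turned on single arrays. Sec62, the partner of Sec63 in post-translational import, differed by 0.15 ± 0.08 log2 units in NFIL3 KO livers (adjusted p = 0.157) and 0.20 ± 0.08 in WT livers (adjusted p = 0.0503). The WT value of Sec62 passed without vehicle-treated WT replicate 2 (0.23, adjusted p = 0.0342) or tunicamycin-treated NFIL3 KO replicate 3 (0.20, adjusted p = 0.046). Sec61g, the gamma subunit, had log2 signals of 9.57, 9.73, 9.41, 9.44 and 9.65 after tunicamycin and 9.23, 9.13, 9.05, 9.14 and 9.28 with vehicle in NFIL3 KO livers, which did not overlap. In WT livers, Sec61g had 8.99, 9.18, 9.31, 9.95 and 9.96 after tunicamycin and 9.28, 9.38, 9.41, 9.37 and 8.97 with vehicle, and replicates 1 and 2 of the tunicamycin arrays lay among the vehicle arrays. The log2 difference was 0.39 ± 0.15 in NFIL3 KO livers (adjusted p = 0.0575) and 0.20 ± 0.15 in WT livers (adjusted p = 0.4). Without tunicamycin-treated WT replicates 1 and 2 it was 0.46 in WT livers (adjusted p = 0.0176), and the NFIL3 KO value then passed too (adjusted p = 0.016), as it did without tunicamycin-treated WT replicate 1, 4 or 5 alone (adjusted p = 0.0324, 0.0349 and 0.0336). Sec61b, the beta subunit, was called in WT livers (0.40 ± 0.10, adjusted p = 0.00303). Its signal was low, with log2 means of 4.64 ± 0.12 after tunicamycin and 4.37 ± 0.17 with vehicle in NFIL3 KO livers (SD, n = 5), against 4.82 ± 0.15 and 4.41 ± 0.14 in WT livers. Only the tunicamycin mean of WT livers exceeded the highest array median of 4.77, and the values used here carry no detection call. Its NFIL3 KO value passed without vehicle-treated WT replicate 2, vehicle-treated NFIL3 KO replicate 3 or tunicamycin-treated NFIL3 KO replicate 3 (log2 differences of 0.26, 0.31 and 0.30, adjusted p = 0.0463, 0.0294 and 0.0312), and the brighter of its 2 probesets alone gave 0.56 (adjusted p = 0.00276).

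Signal peptidase cuts the signal peptide from proteins as they enter the ER. All 5 of its genes rose in both genotypes, with medians of 0.80 in NFIL3 KO and 0.78 in WT livers on the log2 scale. Sec11a, 1 of the 2 alternative catalytic subunits, led the group. Sec11a gave log2 signals of 10.49, 10.39, 10.51, 10.57 and 10.61 after tunicamycin and 8.85, 8.86, 8.73, 8.74 and 9.11 with vehicle in NFIL3 KO livers. In WT livers, Sec11a gave 10.63, 10.55, 10.43, 10.41 and 10.36 after tunicamycin and 8.80, 8.87, 8.83, 8.81 and 8.97 with vehicle. The gap between the groups was over 1 log2 unit in each genotype, and the log2 difference was 1.66 ± 0.09, a 3.15-fold rise, in NFIL3 KO and 1.62 ± 0.09, a 3.08-fold rise, in WT livers (adjusted p = 1.75e-12 and 1.89e-12).

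The other catalytic subunit, Sec11c, also rose but by less. Its log2 signals were 8.56, 8.38, 8.49, 8.75 and 8.63 after tunicamycin and 7.59, 7.75, 7.77, 7.66 and 8.07 with vehicle in NFIL3 KO livers. In WT livers, Sec11c read 8.52, 8.54, 8.51, 8.94 and 8.32 after tunicamycin and 7.84, 7.79, 8.14, 7.83 and 7.79 with vehicle. The groups did not overlap, and the log2 differences were 0.80 ± 0.11 and 0.68 ± 0.11 (adjusted p = 7.61e-06 in NFIL3 KO and 5.13e-05 in WT livers). The response of Sec11a was larger than that of Sec11c by 0.86 ± 0.06 log2 units in NFIL3 KO and 0.94 ± 0.14 in WT livers (exact two-sided permutation p = 0.00794 in each).

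Spcs3, an accessory subunit that the enzyme needs for activity, had the next largest response. Spcs3 read 10.26, 10.19, 10.23, 10.19 and 10.45 after tunicamycin and 9.06, 8.92, 9.06, 9.20 and 9.25 with vehicle in NFIL3 KO livers on the log2 scale. In WT livers, Spcs3 read 10.10, 10.08, 10.23, 10.41 and 10.41 after tunicamycin and 9.06, 9.25, 9.05, 9.15 and 8.98 with vehicle. Tunicamycin and vehicle arrays were separate, with log2 differences of 1.17 ± 0.09 in NFIL3 KO livers and 1.15 ± 0.09 in WT livers (adjusted p = 1.33e-09 and 1.41e-09). Spcs2 rose by 0.73 in NFIL3 KO livers and 0.78 in WT livers, and Spcs1 by 0.44 and 0.57.

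COPII assembly starts when PREB (SEC12) loads the small GTPase SAR1 with GTP at ER exit sites marked by SEC16. SAR1 then recruits SEC23 and SEC24, which select cargo, and SEC13 and SEC31, which form the outer cage. The group held a pair of relatives that moved in opposite directions. Sar1a, which encodes 1 of the 2 SAR1 GTPases, gave log2 signals of 9.82, 9.77, 9.66, 9.82 and 9.90 after tunicamycin and 9.26, 9.14, 9.24, 9.19 and 9.31 with vehicle in NFIL3 KO livers. In WT livers, Sar1a gave 9.79, 9.73, 9.79, 9.75 and 9.88 after tunicamycin and 9.21, 9.19, 9.08, 9.17 and 9.20 with vehicle. All tunicamycin arrays were above all vehicle arrays, with log2 differences of 0.56 ± 0.07 and 0.62 ± 0.07 (adjusted p = 1.44e-06 in NFIL3 KO and 4.12e-07 in WT livers).

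Sar1b, the relative that is known in humans for its need in exporting chylomicrons, went the opposite way. Sar1b read 10.78, 10.73, 10.76, 10.73 and 10.83 after tunicamycin and 11.27, 11.05, 10.99, 11.22 and 11.14 with vehicle in NFIL3 KO livers on the log2 scale. In WT livers, Sar1b read 10.62, 10.83, 10.74, 10.78 and 10.55 after tunicamycin and 11.25, 11.39, 11.07, 11.12 and 11.06 with vehicle. Here every tunicamycin array lay below every vehicle array, which 10.6% of all genes did in NFIL3 KO and 10.5% in WT livers. Sar1b fell by 0.37 ± 0.09 in NFIL3 KO livers and by 0.47 ± 0.09 in WT livers on the log2 scale (SE, adjusted p = 0.00164 and 0.000126), which left 0.77 and 0.72 of the vehicle signal. The within-array difference between Sar1a and Sar1b moved by 0.94 ± 0.06 log2 units in NFIL3 KO and 1.09 ± 0.09 in WT livers, with no overlap of the arrays (exact two-sided permutation p = 0.00794 in each, adjusted p = 0.00983). Both calls of Sar1b held in all 30 alternative settings tried.

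Mammals carry SEC24 in the related pairs SEC24A with SEC24B and SEC24C with SEC24D, and these forms differ in the export signals they bind. Of the 4 genes Sec24d responded most. Sec24d, whose promoter window is printed above, gave log2 signals of 10.64, 10.56, 10.42, 10.79 and 10.59 after tunicamycin and 9.18, 9.17, 9.32, 9.06 and 9.46 with vehicle in NFIL3 KO livers. In WT livers, Sec24d gave 10.71, 10.74, 10.81, 10.66 and 10.67 after tunicamycin and 9.10, 8.97, 9.03, 9.05 and 9.27 with vehicle. Tunicamycin arrays were higher throughout, with a log2 difference of 1.36 ± 0.09 (2.57-fold) in NFIL3 KO and 1.63 ± 0.09 (3.10-fold) in WT livers (adjusted p = 7.65e-11 and 3.38e-12).

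Sec24c, its nearest relative, did not separate the treatments. Sec24c had log2 signals of 8.89, 8.88, 8.74, 8.87 and 9.02 after tunicamycin and 8.89, 9.11, 8.81, 8.81 and 8.92 with vehicle in NFIL3 KO livers. In WT livers, Sec24c had 9.10, 9.001, 8.94, 8.90 and 8.89 after tunicamycin and 9.05, 8.77, 9.06, 9.16 and 9.05 with vehicle. The groups overlapped, and the 95% confidence interval of the log2 difference was -0.21 to 0.16 in NFIL3 KO and -0.23 to 0.13 in WT livers. Within arrays, the response of Sec24c was below that of Sec24d by a difference of -1.39 ± 0.11 log2 units in NFIL3 KO and -1.68 ± 0.08 in WT livers (exact two-sided permutation p = 0.00794 in each).

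Sec24a and Sec24b showed small differences. Sec24a read 10.45, 10.52, 10.42, 10.53 and 10.56 after tunicamycin and 10.39, 10.45, 10.23, 10.18 and 10.25 with vehicle in NFIL3 KO livers on the log2 scale, which overlapped. In WT livers, Sec24a read 10.65, 10.53, 10.57, 10.42 and 10.46 after tunicamycin and 10.32, 10.41, 10.25, 10.29 and 10.32 with vehicle, without overlap. The WT call (0.21 ± 0.08, adjusted p = 0.0471) was lost in 21 of 30 alternative settings, at adjusted p up to 0.228. Those included leaving out any 1 of vehicle-treated WT replicates 1, 3, 4 and 5 or tunicamycin-treated WT replicates 1 to 3, with log2 differences of 0.18 to 0.21, vehicle-treated NFIL3 KO replicates 1, 3 and 5, or tunicamycin-treated NFIL3 KO replicates 1, 2, 4 and 5, which leave the difference at 0.21. The NFIL3 KO value of Sec24a passed without vehicle-treated NFIL3 KO replicate 2 (0.23, adjusted p = 0.0328) or tunicamycin-treated NFIL3 KO replicate 3 (0.22, adjusted p = 0.0441).

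Sec24b had log2 signals of 7.86, 7.98, 7.61, 7.996 and 7.74 after tunicamycin and 7.41, 7.48, 7.53, 7.31 and 7.56 with vehicle in NFIL3 KO livers, with no overlap. In WT livers, Sec24b had 8.06, 7.84, 7.63, 7.46 and 7.49 after tunicamycin and 7.34, 7.25, 7.57, 7.38 and 7.29 with vehicle, where the groups overlapped and tunicamycin replicates 1 and 2 were highest. The log2 difference of Sec24b was 0.38 ± 0.11 in NFIL3 KO (adjusted p = 0.0113) and 0.33 ± 0.11 in WT livers (adjusted p = 0.0267), and without tunicamycin-treated WT replicates 1 and 2 the WT value was 0.16 (adjusted p = 0.345). The WT call was also lost without tunicamycin-treated WT replicate 1 (0.24) or 2 (0.30) alone, and without vehicle-treated WT replicate 1 (0.33), 2 (0.30) or 5 (0.31). Responses of Sec24a and Sec24b were both smaller than that of Sec24d, by differences of -1.17 ± 0.10 and -0.98 ± 0.06 log2 units in NFIL3 KO and -1.42 ± 0.07 and -1.30 ± 0.14 in WT livers (exact two-sided permutation p = 0.00794 in each). The responses of Sec24a and Sec24b were not shown to differ from each other (-0.18 ± 0.09 in NFIL3 KO and -0.13 ± 0.11 in WT livers, adjusted p = 0.0897 and 0.27 from exact permutation).

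**Figure D2:**
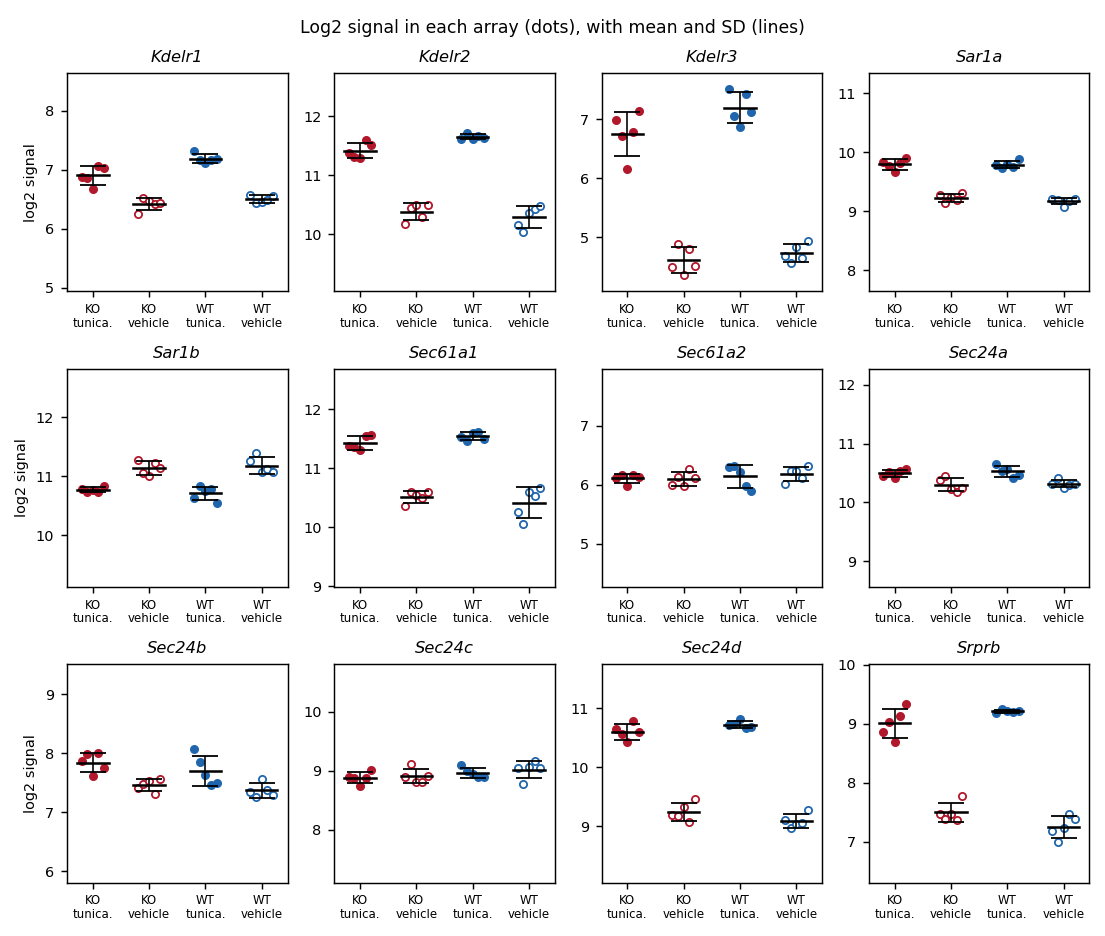
Log2 signal (vertical axis, spanning the same range in every panel) of each array for the KDEL receptors, the SAR1, SEC61 alpha and SEC24 paralogues and Srprb, in the 4 groups of 5 mice (red NFIL3 KO, blue WT, filled tunicamycin, open vehicle). Long bars mark the mean and error bars the SD; Sar1b is lower after tunicamycin while Sar1a is higher, and Sec24d separates the treatments while Sec24c does not.

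SEC23, the partner of SEC24 and activator of the SAR1 GTPase, is encoded by Sec23a and Sec23b. Sec23b gave log2 signals of 9.01, 8.98, 8.59, 9.10 and 9.10 after tunicamycin and 7.67, 7.81, 7.83, 7.75 and 7.95 with vehicle in NFIL3 KO livers. In WT livers, Sec23b gave 9.22, 9.12, 9.05, 9.02 and 9.15 after tunicamycin and 8.01, 7.87, 7.38, 7.81 and 7.79 with vehicle. Its arrays were separate in both genotypes, with log2 differences of 1.16 ± 0.11 and 1.34 ± 0.11 (adjusted p = 2.52e-08 in NFIL3 KO and 2.44e-09 in WT livers). Sec23a likewise had 10.86, 10.79, 10.72, 10.84 and 10.99 after tunicamycin and 9.88, 9.70, 9.75, 9.88 and 9.97 with vehicle in NFIL3 KO livers on the log2 scale. In WT livers, Sec23a had 10.99, 10.96, 10.89, 10.88 and 10.87 after tunicamycin and 9.71, 9.89, 9.74, 9.70 and 9.93 with vehicle. These too were apart, with log2 differences of 1.002 ± 0.08 and 1.12 ± 0.08 (adjusted p = 1.54e-09 in NFIL3 KO and 2.11e-10 in WT livers).

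Sec23a and Sec23b formed the other pair whose responses were not shown to differ, at -0.16 ± 0.09 log2 units in NFIL3 KO and -0.22 ± 0.11 in WT livers (exact two-sided permutation, adjusted p = 0.116 and 0.103). The difference passed without tunicamycin-treated NFIL3 KO replicate 3 (-0.22, adjusted p = 0.0375) and, in WT livers, without vehicle-treated WT replicate 1 (-0.29, adjusted p = 0.0103). In all, 21 of 26 tests over 13 pairs of paralogues passed, 11 in NFIL3 KO and 10 in WT livers, each with an adjusted p of 0.00983. The remaining test that missed was Sec24a against Sec24c in WT livers (0.26 ± 0.09, adjusted p = 0.0563), which passed without vehicle-treated WT replicate 2 (0.34, adjusted p = 0.00983).

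Among the other COPII genes, Preb rose by 0.92 in NFIL3 KO and 1.19 in WT livers, Sec16a by 0.65 and 0.93, and Sec31a by 0.56 and 0.71 on the log2 scale. Sec13, which also serves in the nuclear pore, rose by 0.27 in NFIL3 KO (adjusted p = 0.0183) and 0.28 in WT livers (adjusted p = 0.0169). Its NFIL3 KO call was lost without vehicle-treated NFIL3 KO replicate 1 (0.23, adjusted p = 0.0644). Its WT call was lost without vehicle-treated WT replicate 1 (0.25, adjusted p = 0.0526) or 2 (0.24, adjusted p = 0.0538) or tunicamycin-treated WT replicate 2 (0.24, adjusted p = 0.0506).

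The COPI coat, or coatomer, is a complex of alpha, beta, beta′, gamma, delta, epsilon and zeta subunits, all of which were measured and called higher in both genotypes. Their median log2 difference reached 0.50 in NFIL3 KO livers and 0.69 in WT livers. Copb1, the beta subunit, rose most and has its promoter window printed above. Copb1 gave log2 signals of 10.997, 11.09, 10.86, 11.22 and 11.23 after tunicamycin and 9.94, 9.96, 9.87, 9.97 and 10.25 with vehicle in NFIL3 KO livers. In WT livers, Copb1 gave 11.04, 11.15, 11.06, 10.98 and 11.09 after tunicamycin and 9.91, 10.14, 9.80, 9.88 and 10.10 with vehicle. The treatments were separate, with log2 differences of 1.08 ± 0.09 and 1.10 ± 0.09 (adjusted p = 5.9e-09 in NFIL3 KO and 4.06e-09 in WT livers).

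Arcn1, the delta subunit, followed. Its log2 signals were 10.74, 10.73, 10.77, 10.82 and 10.80 after tunicamycin and 10.09, 10.14, 9.98, 10.15 and 10.24 with vehicle in NFIL3 KO livers. In WT livers, Arcn1 had 10.76, 10.85, 10.90, 10.88 and 10.83 after tunicamycin and 10.10, 10.16, 9.97, 9.95 and 10.14 with vehicle. Replicates lay within 0.3 log2 units of each other in every group and the treatments did not overlap, with log2 differences of 0.65 ± 0.07 and 0.78 ± 0.07 (adjusted p = 2.77e-07 in NFIL3 KO and 1.84e-08 in WT livers). Copa (alpha), Copb2 (beta′), Copg1 (gamma) and Cope (epsilon) rose by 0.32 to 0.64 in NFIL3 KO and 0.55 to 0.71 in WT livers on the log2 scale. Copz1 (zeta) was called at 0.34 ± 0.12 in NFIL3 KO (adjusted p = 0.0363) and 0.48 ± 0.12 in WT livers (adjusted p = 0.00342). The NFIL3 KO call of Copz1 was lost when vehicle-treated NFIL3 KO replicate 1, 2, 4 or 5 or tunicamycin-treated NFIL3 KO replicate 1 or 2 was left out, with log2 differences of 0.30 to 0.35 and adjusted p of 0.056 to 0.0985. These values average 2 probesets. Tested by limma alone, the brighter gave 0.48 ± 0.07 in NFIL3 KO and 0.63 ± 0.07 in WT livers (adjusted p = 5.47e-05 and 1.82e-06). The dimmer gave 0.21 ± 0.22 and 0.34 ± 0.22 (adjusted p = 0.61 and 0.336).

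Cargo receptors pick secretory proteins for export or return residents to the ER, and as a group they had the largest median log2 difference of the 6 groups in both genotypes, 0.87 in NFIL3 KO and 1.01 in WT livers. KDEL receptors bind the retrieval signal at the end of ER chaperones in the Golgi and hand them to COPI vesicles. Kdelr3 showed the largest log2 difference of all members. Kdelr3 gave log2 signals of 6.98, 6.71, 6.17, 6.78 and 7.14 after tunicamycin and 4.50, 4.89, 4.36, 4.81 and 4.52 with vehicle in NFIL3 KO livers. In WT livers, Kdelr3 gave 7.51, 7.07, 6.88, 7.43 and 7.13 after tunicamycin and 4.68, 4.57, 4.83, 4.65 and 4.94 with vehicle. Vehicle and tunicamycin arrays were more than 1 log2 unit apart, with log2 differences of 2.14 ± 0.16 in NFIL3 KO livers and 2.47 ± 0.16 in WT livers (adjusted p = 3.57e-10 and 2.96e-11). With vehicle its mean signal did not exceed the highest array median of 4.77 in either genotype, so no fold is given.

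Kdelr2 also rose strongly. Kdelr2 read 11.38, 11.31, 11.29, 11.60 and 11.50 after tunicamycin and 10.17, 10.44, 10.50, 10.29 and 10.50 with vehicle in NFIL3 KO livers on the log2 scale. In WT livers, Kdelr2 read 11.62, 11.71, 11.61, 11.66 and 11.63 after tunicamycin and 10.15, 10.04, 10.36, 10.43 and 10.48 with vehicle. The treatments did not overlap, and the log2 differences were 1.04 ± 0.10 (2.05-fold) in NFIL3 KO and 1.36 ± 0.10 (2.56-fold) in WT livers (adjusted p = 1.44e-08 and 2.04e-10).

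Kdelr1 rose least of the 3 receptors. Kdelr1 had log2 signals of 6.88, 6.86, 6.68, 7.06 and 7.04 after tunicamycin and 6.25, 6.53, 6.46, 6.42 and 6.43 with vehicle in NFIL3 KO livers. In WT livers, Kdelr1 had 7.32, 7.17, 7.11, 7.16 and 7.18 after tunicamycin and 6.58, 6.43, 6.45, 6.49 and 6.56 with vehicle. Treatments were again apart, by 0.48 ± 0.08 and 0.69 ± 0.08 log2 units (adjusted p = 8.5e-05 in NFIL3 KO and 8.78e-07 in WT livers). As measured, with each gene read by its own probeset, the order of responses held within arrays. That of Kdelr2 was smaller than that of Kdelr3 by a difference of -1.10 ± 0.19 log2 units in NFIL3 KO livers and -1.11 ± 0.13 in WT livers. Kdelr1 in turn responded less than Kdelr3, by a difference of -1.66 ± 0.15 in NFIL3 KO livers and -1.78 ± 0.11 in WT livers, and less than Kdelr2, by -0.55 ± 0.05 in NFIL3 KO livers and -0.67 ± 0.09 in WT livers (exact two-sided permutation p = 0.00794 in each).

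Mcfd2 and Lman1 encode the 2 parts of the receptor that carries coagulation factors V and VIII out of the ER. Mcfd2 gave log2 signals of 9.85, 9.72, 9.78, 10.02 and 9.95 after tunicamycin and 8.12, 7.78, 8.40, 8.03 and 8.46 with vehicle in NFIL3 KO livers. In WT livers, Mcfd2 gave 9.83, 9.80, 9.97, 10.04 and 10.09 after tunicamycin and 7.91, 7.79, 7.99, 7.92 and 8.46 with vehicle. The lowest tunicamycin array stood over 1 log2 unit above the highest vehicle array in each genotype, and the log2 differences were 1.70 ± 0.13 (3.26-fold) and 1.93 ± 0.13 (3.82-fold) (adjusted p = 6.59e-10 in NFIL3 KO and 7.59e-11 in WT livers). Lman1 rose by 0.60 in NFIL3 KO and 0.64 in WT livers on the log2 scale, and its relative Lman2 by 0.64 and 0.80. The difference between the responses of Mcfd2 and Lman1 was not tested. Surf4, a receptor for secreted proteins that include lipoproteins, rose by 0.95 in NFIL3 KO and 1.20 in WT livers.

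The p24 family members Tmed2 and Tmed10 act as receptors in vesicles of both coats. Tmed2 rose by 0.87 in NFIL3 KO and 1.01 in WT livers on the log2 scale. Tmed10, averaged over 3 probesets, rose by 0.44 in NFIL3 KO (adjusted p = 0.00519) and 0.34 in WT livers (adjusted p = 0.035). Its probesets differed, with log2 differences from brightest to dimmest of 0.19, 0.15 and 0.99 in NFIL3 KO and 0.28, 0.12 and 0.61 in WT livers. Tested alone by limma, only the dimmest was called in NFIL3 KO livers (adjusted p = 0.000805). Its mean level of 3.93 lay below the lowest array median of 4.65. The WT call of the averaged Tmed10 was lost when vehicle-treated WT replicate 2, 3 or 5 or tunicamycin-treated WT replicate 2, 4 or 5 was left out, with log2 differences of 0.26 to 0.34 and adjusted p of 0.0542 to 0.116, and without both tunicamycin-treated WT replicates 1 and 2 (adjusted p = 0.0786). With the brightest probeset alone, the NFIL3 KO value of Tmed10 was 0.19 (adjusted p = 0.0972).

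The study asked what NFIL3 contributes to the response to ER stress. Nfil3 was itself raised by tunicamycin in WT livers (1.55 ± 0.23 on the log2 scale, adjusted p = 1.2e-05). For these genes the comparison of NFIL3 KO with WT livers gave no call. After tunicamycin 0 of 51 members were called, where 0.243% of all genes were, and 8 members had an unadjusted p under 0.05, all lower in NFIL3 KO livers. With vehicle 0 were called, where 0.0225% of all genes were, and 2 had an unadjusted p under 0.05. The share of all genes with an unadjusted p under 0.05 was not counted. The counts of members at that level therefore have no background and are not read as a genotype effect. No member was called in either comparison under any of 30 alternative settings, the ordinary linear model included. The 95% confidence intervals of all 51 differences lay within 1 log2 unit of 0 in both comparisons.

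Kdelr1 had the smallest p after tunicamycin, with all 5 tunicamycin-treated NFIL3 KO arrays printed above below the 5 of WT livers. The log2 difference between NFIL3 KO and WT livers was -0.29 ± 0.08 (95% confidence interval -0.46 to -0.11, adjusted p = 0.271 by limma). Kdelr3 followed at -0.45 ± 0.16 (adjusted p = 0.365), where the groups overlapped. Cope, with log2 signals of 9.18, 9.07, 9.11, 9.16 and 9.12 in NFIL3 KO and 9.17, 9.38, 9.39, 9.51 and 9.44 in WT livers after tunicamycin, differed by -0.25 ± 0.10 (adjusted p = 0.438), and 1 of the WT arrays lay inside the NFIL3 KO range. Arrays did not overlap for 4 members, Kdelr1, Kdelr2 (-0.23), Ssr4 (-0.22) and Sec13 (-0.20), all lower in NFIL3 KO livers, against 0.78% of all genes that lay apart in this direction.

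With vehicle the smallest p-values belonged to Sec13, Srprb and Ssr1. Sec13 had log2 signals of 8.11, 8.40, 8.26, 8.32 and 8.34 in NFIL3 KO and 8.36, 8.33, 8.60, 8.42 and 8.72 in WT livers with vehicle, which overlapped, and differed by -0.20 ± 0.09 (adjusted p = 0.841). The vehicle arrays of Srprb gave a difference of 0.25 ± 0.11 (adjusted p = 0.906). Ssr1 had 7.45, 7.21, 7.58, 7.40 and 7.35 in NFIL3 KO and 7.07, 6.91, 7.23, 7.28 and 7.42 in WT livers, also overlapping, with a difference of 0.22 ± 0.12 (adjusted p = 0.942). This averages 2 probesets that were unlike, with a log2 difference of -0.02 ± 0.09 for the brighter and 0.46 ± 0.21 for the dimmer.

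The test of unequal responses, the interaction of genotype and tunicamycin, called 0 of 51 members, where 0.00902% of all genes were called. An unadjusted p under 0.05 was found for 4 members, again without a count over all genes. No member was called in any of 29 alternative settings. Srprb had the smallest p (log2 difference of responses -0.45 ± 0.16, 95% confidence interval -0.78 to -0.11, adjusted p = 0.9998 by limma), followed by Kdelr2 (-0.32 ± 0.14, adjusted p = 0.9998). Sec16a, the exit site scaffold, came after these. In NFIL3 KO livers Sec16a had log2 signals of 9.31, 9.09, 8.97, 9.44 and 9.29 after tunicamycin and 8.64, 8.64, 8.57, 8.40 and 8.61 with vehicle. In WT livers, Sec16a had 9.48, 9.40, 9.53, 9.43 and 9.41 after tunicamycin and 8.54, 8.29, 8.61, 8.53 and 8.61 with vehicle. It rose without overlap in both genotypes, and its responses differed by -0.28 ± 0.13 (adjusted p = 0.9998).

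Without a call for any single gene, the responses in NFIL3 KO livers were mostly the smaller ones. Of the 46 members called higher in WT livers, 39 (84.8%) had a smaller log2 difference in NFIL3 KO livers, as had 61.4% of the 3035 genes called higher in WT livers. Choosing genes by the WT call favours large WT values, for members and other genes alike. The median interaction was -0.10 with 40 of 51 members below 0, where 50.4% of all genes were below 0. After tunicamycin the median difference between NFIL3 KO and WT livers was -0.07 with 38 members below 0, and with vehicle it was 0.03 with 20 below 0. Of all genes, 50.3% were below 0 after tunicamycin and 50.4% with vehicle. Among the 11090 genes above the median level, which include 50 of the members, these shares were 56.0% and 56.9%. These comparisons share arrays and are not separate evidence. Without tunicamycin-treated NFIL3 KO replicate 3 the median interaction was -0.09 with 35 members below 0, and the median difference after tunicamycin was -0.05 with 35 below 0. Across the 51 genes, which are not independent and share arrays, the responses in NFIL3 KO and WT livers correlated at r = 0.975, and at r = 0.916 across all genes.

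**Figure D3:**
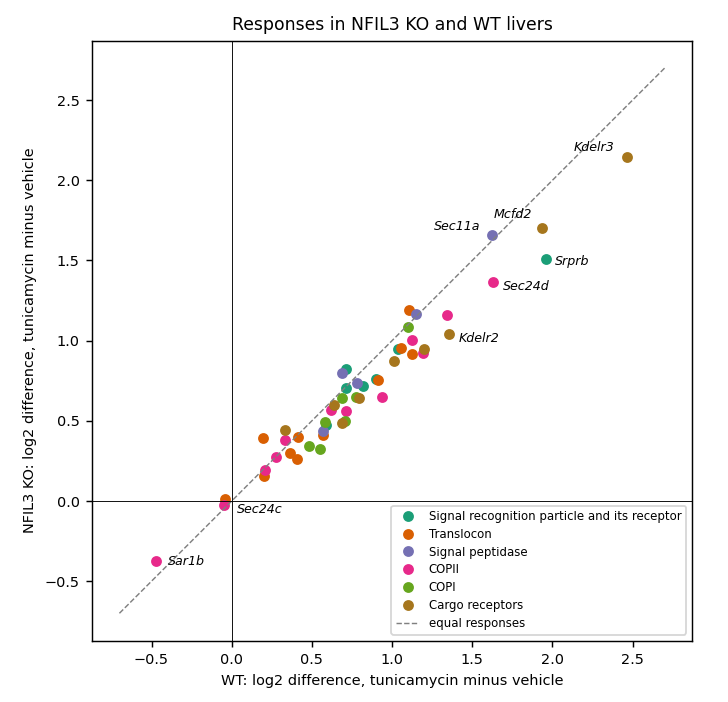
Log2 difference between tunicamycin and vehicle in NFIL3 KO livers (vertical axis) against that in WT livers (horizontal axis) for the 51 members, coloured by role, with the line of equal responses dashed. Most points sit near the line, and of the 46 members called higher in WT livers 39 lie below it, Srprb (1.51 and 1.96) and Kdelr2 (1.04 and 1.36) among them.

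Genes that act beside the members were described from 7 further lists, of which 90 genes were measured. Of these, 42 were called higher and 17 lower in NFIL3 KO livers, and 47 higher and 13 lower in WT livers, with median log2 differences of 0.23 and 0.32. Of all genes, 13.5% were called higher and 13.7% lower in NFIL3 KO livers, and 13.7% in each direction in WT livers. The 13 of 90 called lower in WT livers lie near that share. Other COPI and ARF factors had 11 of 17 higher and 3 lower in NFIL3 KO, and 13 higher and 1 lower in WT livers. Other COPII and exit site factors had 10 of 23 higher and 7 lower in NFIL3 KO, and 13 higher and 6 lower in WT livers. The ER membrane protein complex, which inserts membrane proteins without signal peptides, had 2 of 10 higher and 4 lower in NFIL3 KO, and 2 higher and 2 lower in WT livers. Tail-anchored protein insertion had 3 of 6 higher and none lower, and other translocation factors 4 of 9 higher and 1 lower, in both genotypes. Other cargo receptors had 8 of 17 higher and 2 lower in NFIL3 KO, and 8 higher and 3 lower in WT livers.

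**Figure D4:**
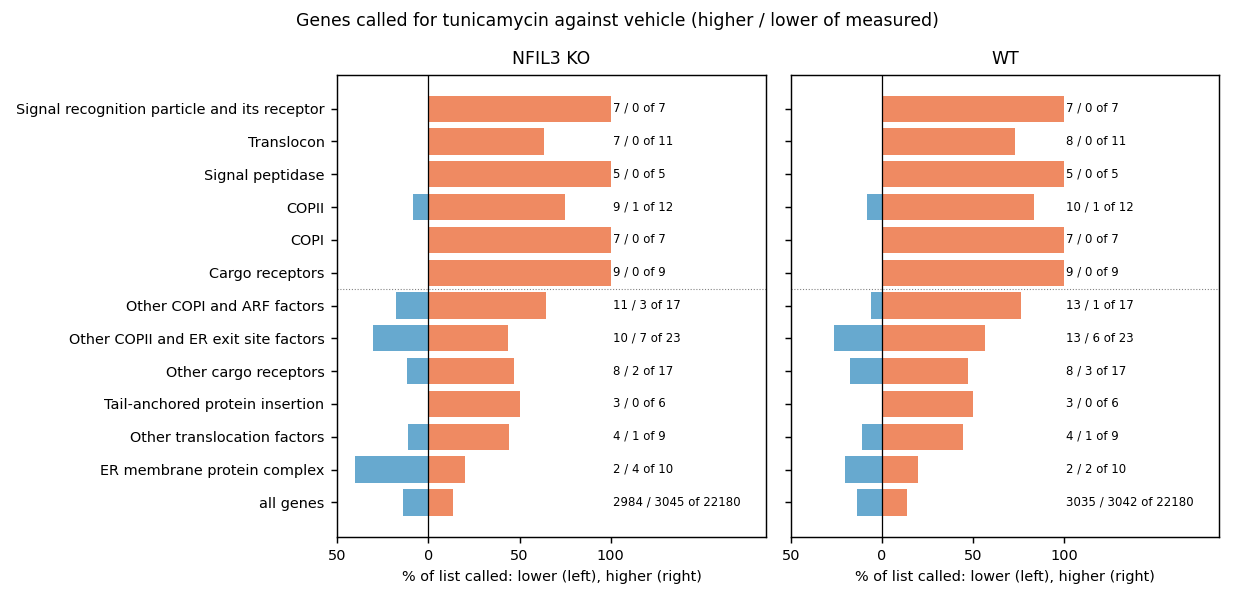
Percent of each list called higher (orange, right of 0) or lower (blue, left of 0) for tunicamycin against vehicle in NFIL3 KO (left panel) and WT (right panel) livers, with the counts printed beside the bars. The 6 roles of the members stand above the dotted line and all genes in the bottom row. The roles together have 1 gene called lower, Sar1b, while the ER membrane protein complex has 4 lower and 2 higher in NFIL3 KO livers and 2 of each in WT livers.

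Beyond the transcription factors, the largest rises of these lists in WT livers were those of Arfgap3, which releases ARF1 from coatomer vesicles (1.61 in NFIL3 KO and 1.93 in WT livers, log2 differences), Stx5a, the Golgi SNARE for incoming vesicles (1.67 and 1.90), Nbas, part of the ER tether for COPI vesicles (1.67 and 1.86), Hspa13 (1.53 and 1.71) and the p24 gene Tmed3 (1.42 and 1.67). The largest falls of these lists in WT livers were those of Tram2, a relative of Tram1 (-1.70 in NFIL3 KO and -1.70 in WT livers), Emc9 of the ER membrane protein complex (-0.92 and -1.09), Mia2, an exit site factor for large cargo (-0.77 and -0.87), Ergic3 (-0.74 and -0.70) and Trappc1 of the TRAPP tether (-0.78 and -0.67). The adjusted p of these 10 genes was at most 2.34e-05 in NFIL3 KO livers and 1.64e-05 in WT livers (limma). Only 1 of the 90 genes was called between the genotypes, where 0.243% of all genes were called after tunicamycin and 0.0225% with vehicle. Yif1a, a Golgi protein of vesicle traffic, had a log2 difference of -0.47 ± 0.10 between NFIL3 KO and WT livers after tunicamycin (lower in NFIL3 KO, adjusted p = 0.0397).

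Of 8 transcription factors known for secretory pathway genes, 4 were called higher in both genotypes. Atf6 differed by 1.69 ± 0.09 in NFIL3 KO and 1.74 ± 0.09 in WT livers, Creb3l2 by 1.29 ± 0.15 and 1.37 ± 0.15, Atf6b by 0.99 ± 0.13 and 0.97 ± 0.13, and Creb3 by 0.45 ± 0.10 and 0.69 ± 0.10 (log2 differences, adjusted p at most 0.00116). Xbp1 was not called, at -0.09 ± 0.10 and -0.10 ± 0.10, and nor were Creb3l1, Creb3l3 and Creb3l4. The array reads the sum of the transcripts of a gene and does not resolve the spliced form of Xbp1.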

How the data were processed

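The authors extracted total RNA from whole liver, hybridised it to MoGene-2_0-st arrays, and per the labels and the study's methods applied RMA background correction, quantile normalization and median polish in Partek Genomics Suite 6.6. The deposited values are log2 signals of 41345 probesets, from 0.515 to 13.7, with array medians of 4.65 to 4.77. Probesets with 1 gene symbol (23521) were averaged into 22180 genes, and those with several (1820) or none (16004) were left out. Of the members, 45 have 1 probeset and 6 several. Group means were fitted to all 20 arrays in limma 3.58.1 (R 4.3.3, lmFit and eBayes), two-sided, with Benjamini-Hochberg adjustment over all genes and calls under 0.05. Differences carry the standard error of the fit. The script was tested on simulated data. Paralogues were compared by the within-array difference of their log2 signals, with exact permutation over 252 splits and adjustment over 26 tests. Such a difference shows unequal change in measured signal only, since different probesets read the genes of a pair. Array number, 5 per group, limits the precision. Named in full were the 2 members with the largest WT difference in each role, paralogues, members called lower and the 3 with the smallest p between genotypes, and from the wider lists the 5 largest called rises and falls and the transcription factors. Members and lists were chosen with earlier results of these data known. Alternatives were the replicate block, leaving out arrays, the 10 arrays compared only, brighter genes only, the brightest probeset, cyclic loess, median centring, an ordinary linear model, array weights and single probesets.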

Additional observations from a re-analysis of the deposited data

Results flagged for a closer look

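Of 204 sets of 5 arrays (51 members in 4 groups), 10 held an array whose gap to the rest was large for the range of its group by Dixon's test, which chance gives in about 1 in 20 sets. Vehicle-treated NFIL3 KO replicate 5 was the high array for 4 genes, with log2 signals of 7.78 for Srprb (others 7.38 to 7.48), 10.23 for Copa (others 10.01 to 10.06), 10.25 for Copb1 (others 9.87 to 9.97) and 10.46 for Copb2 (others 10.05 to 10.15). It was the highest of its group for 27 of the 51 members. Vehicle-treated WT replicate 2 was the low array for Sec16a at 8.29 (others 8.53 to 8.61) and Sec24c at 8.77 (others 9.05 to 9.16), and replicate 3 the high array for Sec11c at 8.14 (others 7.79 to 7.84). Among tunicamycin-treated NFIL3 KO arrays, replicate 5 was high for Spcs3 at 10.45 (others 10.19 to 10.26), replicate 1 high for Sec13 at 8.61 (others 8.54 to 8.55) and replicate 3 low for Sec23b at 8.59 (others 8.98 to 9.10).

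The 2 probesets annotated to Srp54a together with Srp54b and Srp54c were used in no comparison and cannot tell the copies apart. Their mean log2 signals after tunicamycin were 11.66 and 11.72 in NFIL3 KO livers, where vehicle arrays lay between 10.11 and 10.56 and between 10.15 and 10.61. In WT livers the means after tunicamycin were 11.72 and 11.76, where vehicle arrays lay between 10.02 and 10.37 and between 10.08 and 10.42. The log2 differences of the means were 1.39 and 1.38 in NFIL3 KO and 1.49 and 1.48 in WT livers.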

How the results depend on the processing

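The number of members called for tunicamycin against vehicle stayed between 43 and 48 over 30 alternative settings in each genotype, with Sar1b the 1 called lower in each. Leaving out tunicamycin-treated WT replicates 1 and 2 gave 46 in NFIL3 KO livers and 44 in WT livers. Without tunicamycin-treated NFIL3 KO replicate 3 they were 47 and 48. Calls of 42 of 45 members in NFIL3 KO and 43 of 47 in WT livers held in every setting, and those that did not are Sec13, Copz1 and Tmed10, and Sec13, Sec24a, Sec24b and Tmed10. Another 4 members in NFIL3 KO (Sec61b, Sec61g, Sec62 and Sec24a) and 2 in WT livers (Sec61g and Sec62) were called in some alternatives. No call changed direction. Cyclic loess and median centring moved the median of all genes by less than 0.02.

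Replicate numbers do not pair the animals in the labels, and correlations of the deviations of same-numbered arrays ran from -0.14 to 0.10 (mean -0.0057, against 0.0013 for other arrays), with 2 of 20 arrays closest to their own number. Within a treatment the mean was 0.0483 for tunicamycin and 0.0532 for vehicle, against -0.0128 and -0.013 for other arrays, and between treatments it was negative. With the replicate number as a block, 44 members were called in NFIL3 KO and 46 in WT livers, without Copz1 and Sec24a. For the paralogue comparisons the replicate block leaves 32 sign flips, which cannot give a p below 0.0625, so that 0 of 26 tests passed against 21, and the other alternatives gave 21 or 22. Nfil3 passed the interaction test only without tunicamycin-treated NFIL3 KO replicate 1 (-1.91, adjusted p = 0.0232, against -1.72 and 0.218 with it).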
